A study of Mus musculus with 4 samples.

Results

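The 9 genes described here encode receptors that hold blood stem cells in the bone marrow or guide them back to it. They are the chemokine receptor Cxcr4, the integrin chains Itga4, Itga5, Itga6, Itgb1 and Itgb2, the hyaluronan receptor Cd44, the selectin ligand Selplg and the surface glycoprotein Cd47. They were chosen by name for this role, and all 9 were found among 51912 Ensembl genes in each deposited file. Expression was measured by RNA sequencing in 2 Fam122a knockout (KO) and 2 wild-type (WT) libraries of mouse cells sorted as long-term haematopoietic stem cells (LT-HSCs). All mice were of the C57BL/6 strain, 8 to 12 weeks old, and each library pooled sorted cells of 3 animals. The gate was lineage-negative Sca1+ Kit+ cells lacking CD34 and Flk2. How the Fam122a allele was deleted, and whether a Cre driver was used, is not given in the sources used here. The study asked which genes depend on Fam122a, whose product inhibits PP2A, a phosphatase.

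Stem cells stay in the marrow through a small set of surface contacts. CXCR4 senses the chemokine CXCL12 released by perivascular stromal cells, and blocking it mobilises stem cells into blood. Integrins are pairs of an alpha and a beta chain: ITGB1 pairs with ITGA4 to bind VCAM1 and fibronectin, with ITGA5 to bind fibronectin and with ITGA6 to bind laminin, whereas ITGB2 forms the leukocyte integrins that bind ICAM1. CD44 binds hyaluronan and, in some glycoforms, selectins, SELPLG (PSGL-1) is the main ligand of P-selectin, and CD47 binds SIRPA on macrophages and inhibits engulfment.

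Values are FPKM, fragments scaled by transcript length and by the library's total, a unit that was inferred from the values. Fam122a was listed at 0 in both KO libraries, against 18.4 and 7.46 FPKM in WT replicates 1 and 2. Steps between low values implied 6760000 and 6020000 fragments in KO replicates 1 and 2, and 4240000 and 2520000 in WT replicates 1 and 2. WT replicate 2 stood apart. Its log2 values had Pearson correlations of -0.165 and -0.163 with the KO libraries and 0.131 with WT replicate 1, while the KO libraries correlated with each other at 0.967 and with WT replicate 1 at 0.834 and 0.824 (18214 genes, which are not independent replicates). Loci without a gene name held 53.9% of its summed FPKM, against 9.14% in WT replicate 1. In KO replicates 1 and 2 they held 1.74% and 1.81%, so WT replicate 1 was also above both KO libraries. Of the gate's defining genes, Ly6a, which encodes Sca1, was at 229.9 and 205 FPKM in KO, 201 FPKM in WT replicate 1 and 0 FPKM in WT replicate 2. Kit was at 93.5 and 129.5 FPKM in KO, 81.7 FPKM in WT replicate 1 and 2.26 FPKM in WT replicate 2. The comparison below is therefore of the 2 KO libraries with WT replicate 1, and WT replicate 2 is shown beside it. Markers of other cell types were present in the other 3 libraries. Cd34 was at 87.7 and 62.1 FPKM in KO and 179 FPKM in WT replicate 1. Flt3, which encodes Flk2, was at 36.2 and 24.7 FPKM in KO and 26.2 FPKM in WT replicate 1. Together 10 neutrophil markers held 9.10% and 8.02% of the summed gene FPKM in KO and 18.0% in WT replicate 1. Most of that sum was S100a8 and S100a9. Each of the 10 was lower in both KO libraries. Ltf hardly differed, at 2658 and 2611 FPKM in KO and 2669 FPKM in WT replicate 1.

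Transcripts of all 9 receptors were readily detected in KO and in WT replicate 1, and none passed the test between them. In KO the 9 genes ranged over 12.3 to 530 FPKM in replicate 1 and 15.96 to 437 FPKM in replicate 2, against 7.01 to 413 FPKM in WT replicate 1. Both KO libraries lay above WT replicate 1 for 5 of the 9 genes (Itga4, Itga5, Itgb2, Selplg and Cd47), where 42.5% of the 15867 tested genes did so, and below it for 2 (Cxcr4 and Cd44), where 43.0% did so. Itga6 and Itgb1 had WT replicate 1 between the KO libraries. With limma on log2(FPKM + 1), 0 of the 9 passed an adjusted p of 0.05 (adjusted p = 0.105 to 0.908), while 9.83% of all tested genes passed, 0.454% as higher and 9.37% as lower in KO. With quantile normalization 865 genes passed as higher and 1716 as lower, in place of 72 and 1487, and again 0 of the 9. The median log2 difference of the 9 genes was 0.20, against -0.0021 over all tested genes, and 6 of the 9 lay above 0. This gap depended on the filter. Over genes with a mean of at least 5 FPKM the median of all tested genes was 0.14. It was 0.12 over genes with 1 FPKM in 2 libraries, and that of the 9 genes stayed at 0.20 with both filters. At an unadjusted p under 0.05, 1 of the 9 passed (Itga4), where 33.4% of all tested genes did. With a single WT library, the test assumes that WT would vary as the KO pair does, and an exact permutation of 2 libraries against 1 cannot give a one-sided p below 0.333. Different numbers of receptor-bearing cells in the sort and different amounts of RNA per cell cannot be told apart in these bulk libraries.

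**Figure D1:**
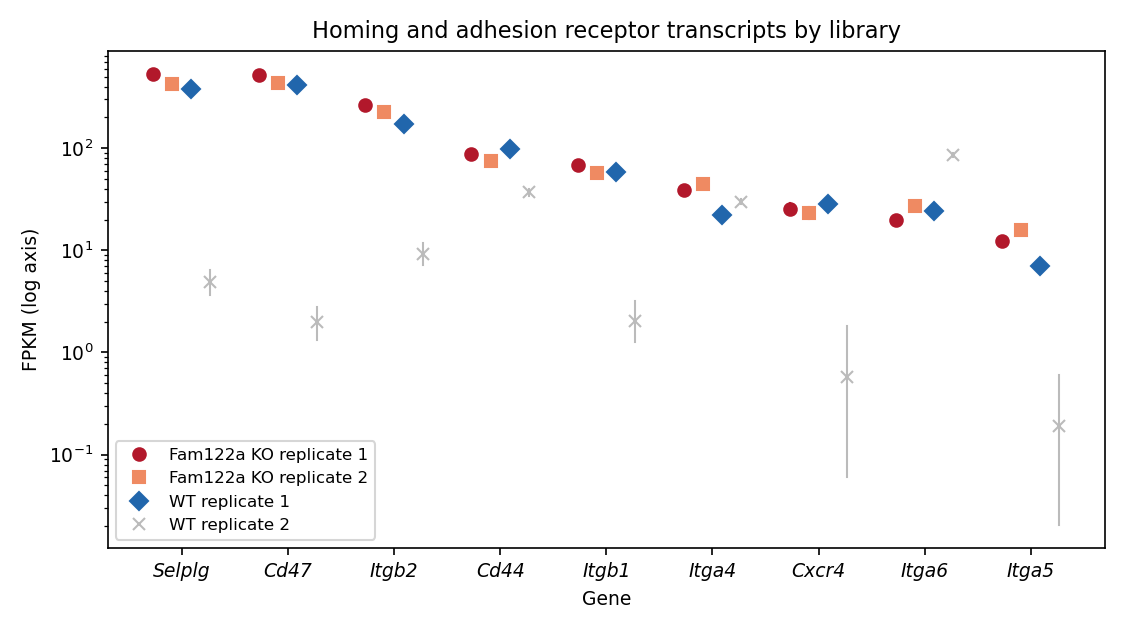
FPKM (log axis) of the 9 receptor genes in each library, ordered by their KO mean. Points are single libraries and vertical lines are 95% Poisson intervals for counting error only, drawn from estimated fragments (most are shorter than the points). The KO libraries lie within 2.28 times the WT replicate 1 value for every gene, and WT replicate 2 lies far below them for 6 genes and highest of all 4 libraries for Itga6.

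Cxcr4, the receptor for CXCL12, was at 25.6 and 23.2 FPKM in KO, against 28.3 FPKM in WT replicate 1. The KO libraries were thus lower, by a log2 difference of -0.21 (SE 0.13, limma adjusted p = 0.384), and the gene did not pass. The gene (ENSMUSG00000045382, GRCm38 chromosome 1, 128588199 to 128592293, minus strand, as annotated in GENCODE M21) has 1808 exonic bp, and the values correspond to an estimated 272 and 216 fragments in KO and 188 in WT replicate 1. Counting error alone gave WT replicate 1 a 95% interval of 24.4 to 32.6 FPKM, which contains the value of KO replicate 1. The value of KO replicate 2 lay below this interval, and its own interval, 20.2 to 26.5 FPKM, overlapped it. The direction was not stable, since scaling the libraries to equal sums over Ensembl genes gave 0.020 and scaling by the median ratio over genes gave -0.36. WT replicate 2 was at 0.58 FPKM, an estimated 2 fragments. The 3 coding genes with values nearest to those of Cxcr4 over the 4 libraries, by Euclidean distance of log2(FPKM + 1), were Ndufa11, Rabif and Rp2 (distances 0.186, 0.193 and 0.208).

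Itga4 had the smallest adjusted p of the 9 genes, and it did not pass. It was at 39.3 and 44.3 FPKM in KO, against 21.9 FPKM in WT replicate 1. Both KO libraries were higher and close to each other, with a KO mean of 41.8 ± 3.58 FPKM (SD, n = 2), 1.90 times the WT replicate 1 value. The log2 difference was 0.90 (SE 0.14, limma adjusted p = 0.105). It stayed positive in 10 of 10 alternative settings of scaling, filter or model with these 3 libraries (0.74 to 1.12, adjusted p = 0.0635 to 0.126). WT replicate 2, at 30.0 FPKM, lay between WT replicate 1 and the KO libraries, so the groups did not overlap when it was added. With all 4 libraries the difference was 0.68 (SE 1.04, limma adjusted p = 0.650). Itga4 (ENSMUSG00000027009, chromosome 2, 79255426 to 79333123, plus strand) encodes the alpha chain that binds VCAM1, whose own gene, picked with values known, was at 42.1 and 51.6 FPKM in KO and 33.6 FPKM in WT replicate 1.

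Itga5, the fibronectin-binding alpha chain, was the lowest of the 9 genes in every library. It was at 12.3 and 15.96 FPKM in KO, against 7.01 FPKM in WT replicate 1 and 0.19 FPKM in WT replicate 2. Both KO libraries were higher than both WT libraries, but they also differed from each other, with a KO mean of 14.1 ± 2.57 FPKM (SD, n = 2). The log2 difference from WT replicate 1 was 0.91 (SE 0.27, limma adjusted p = 0.182), almost that of Itga4 with a larger error. The gene (ENSMUSG00000000555, chromosome 15, 103344286 to 103366763, minus strand) had an estimated 391 and 449 fragments in KO and 139 in WT replicate 1. Its value was positive in 10 of 10 alternative settings (0.67 to 1.24).

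Itga6, the laminin-binding alpha chain, was at 19.7 and 27.4 FPKM in KO and 24.2 FPKM in WT replicate 1. The KO libraries lay on both sides of WT replicate 1 (log2 difference -0.056, SE 0.30, limma adjusted p = 0.908). WT replicate 2 was at 86.4 FPKM, the highest value of the gene. Its difference moved most of the 9 when the profile of WT replicate 2 was taken off WT replicate 1, to 0.72 (adjusted p = 0.2502), and it was 0.17 after scaling to equal sums. Itga6 lies on chromosome 2, 71745616 to 71858416 on the plus strand (ENSMUSG00000027111), and its genomic span is 12.5 times its exonic length.

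Itgb1, the beta chain shared by these alpha chains, was at 68.7 and 57.2 FPKM in KO and 58.5 FPKM in WT replicate 1 (log2 difference 0.098, SE 0.18, limma adjusted p = 0.722). WT replicate 1 lay between the KO libraries, and the sign turned under median ratio scaling (-0.060), quantile normalization (-0.033) and subtraction of the WT replicate 2 profile (-0.047). Itgb1 (ENSMUSG00000025809) lies on chromosome 8, 128685654 to 128733200, plus strand. Setting each alpha chain against Itgb1 within a library removes any scaling between libraries. The Itga4 to Itgb1 ratio was 0.572 and 0.775 in KO, against 0.375 in WT replicate 1. The Itga5 to Itgb1 ratio was 0.1796 and 0.279 in KO, against 0.120 in WT replicate 1. Both KO libraries were above WT replicate 1 for these ratios, whereas the Itga6 to Itgb1 ratio was 0.287 and 0.479 in KO and 0.414 in WT replicate 1. Itga4 and Itga5 kept nearly the same proportion to each other, at 3.18 and 2.78 in KO and 3.13 in WT replicate 1.

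Itgb2, the beta chain of the leukocyte integrins, was at 266 and 227 FPKM in KO, against 174 FPKM in WT replicate 1. Each KO library was higher, with a KO mean 1.42 times the WT replicate 1 value (log2 difference 0.49, SE 0.16, limma adjusted p = 0.197). The value stayed positive in 10 of 10 alternative settings (0.34 to 0.73), without passing. Itgb2 (ENSMUSG00000000290, chromosome 10, 77530252 to 77565708, plus strand) was the more abundant beta chain, at 3.87 and 3.97 times Itgb1 in KO and 2.97 times in WT replicate 1. Its alpha partners Itgal and Itgam were picked for their role with values known. Itgal was at 38.8 and 39.4 FPKM in KO and 29.1 FPKM in WT replicate 1, and Itgam was at 119 and 106 FPKM in KO and 99.4 FPKM in WT replicate 1. The Itgam to Itgb2 ratio was 0.446 and 0.466 in KO and 0.571 in WT replicate 1, and the Itgal to Itgb2 ratio was 0.146 and 0.174 in KO and 0.167 in WT replicate 1. Itgb2 and Itgam are also expressed by mature myeloid cells. Beside the lower neutrophil share in KO given above, 6 mast cell, basophil and eosinophil markers held 1.18% and 0.669% of the summed gene FPKM in KO and 0.143% in WT replicate 1. Most of that sum was the eosinophil gene Prg2, at 8593 and 4666 FPKM in KO and 947 FPKM in WT replicate 1. Epx, the other eosinophil gene, was likewise higher in both KO libraries, while the mast cell and basophil genes Cpa3, Mcpt8, Prss34 and Ms4a2 were lower in both, values seen before these genes were singled out. The part of these cells in the Itgb2 values was not tested.

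Cd44 was lower in both KO libraries, at 88.2 and 74.8 FPKM, against 98.3 FPKM in WT replicate 1. The log2 difference was -0.27 (SE 0.16, limma adjusted p = 0.355), which did not pass, and it ranged from -0.43 to -0.039 over 10 alternative settings. The gene (ENSMUSG00000005087) lies on chromosome 2, 102811141 to 102901665, minus strand, and was at 36.9 FPKM in WT replicate 2.

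Selplg and Cd47 were the most abundant of the 9 genes. Selplg was at 530 and 428 FPKM in KO, against 381 FPKM in WT replicate 1 (log2 difference 0.32, SE 0.21, limma adjusted p = 0.380). Cd47 was at 516 and 437 FPKM in KO, against 413 FPKM in WT replicate 1 (0.20, SE 0.17, adjusted p = 0.481). Both KO libraries were higher for both genes, but KO replicate 2 differed more from KO replicate 1 than from WT replicate 1. WT replicate 2 was at 4.91 FPKM for Selplg and 1.99 FPKM for Cd47. Selplg (ENSMUSG00000048163) lies on chromosome 5, 113818536 to 113832644, minus strand, and Cd47 (ENSMUSG00000055447) on chromosome 16, 49800533 to 49915010, plus strand. Sirpa, which encodes the CD47 receptor and was picked with values known, was at 88.2 and 98.1 FPKM in KO and 62.2 FPKM in WT replicate 1, and its ratio to Cd47 was 0.171 and 0.224 in KO and 0.150 in WT replicate 1.

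**Figure D2:**
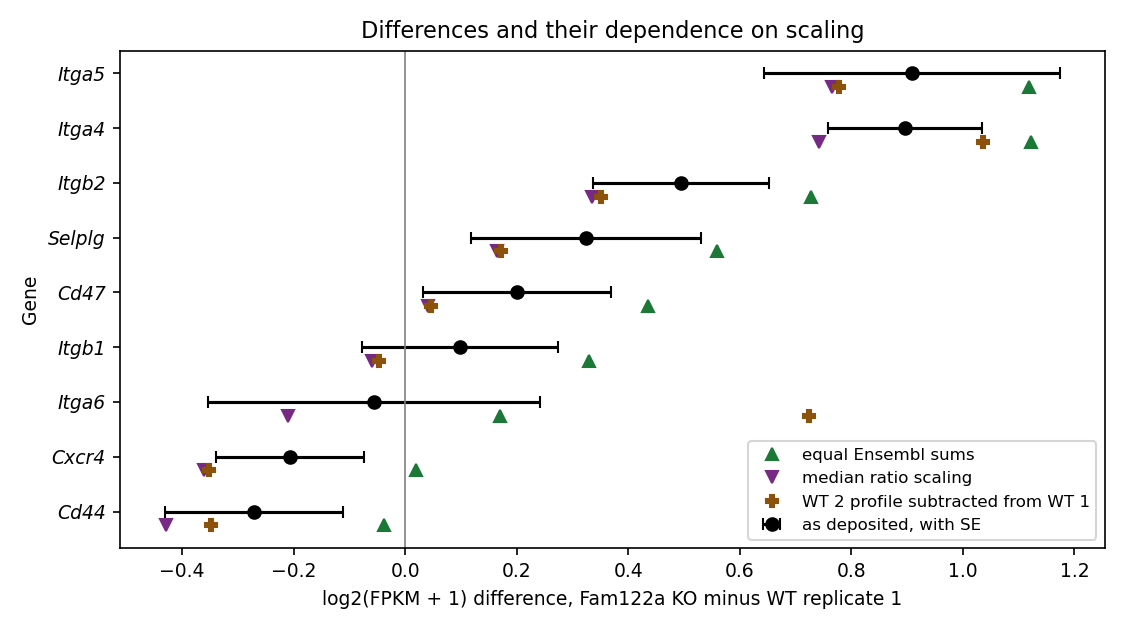
Log2(FPKM + 1) difference of each receptor gene, KO minus WT replicate 1. Black points with bars are the values as deposited with their standard errors, and coloured symbols are the same difference after equal-sum scaling, median ratio scaling or removal of a scaled WT replicate 2 profile from WT replicate 1. Itga4, Itga5, Itgb2, Selplg and Cd47 stay above 0 under each symbol, Cd44 stays below it, and Cxcr4, Itga6 and Itgb1 cross it.

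The scaling matters for the small differences. Equal-sum scaling raised the log2 difference of a gene by 0.24, and median ratio scaling lowered it by 0.16, relative to the deposited values. Relative to the median of all tested genes under each scaling (0.22 and -0.15), the median of the 9 genes (0.43 and 0.041) stayed higher by similar amounts. With a scaled WT replicate 2 profile taken off WT replicate 1, the median of the 9 genes was 0.17 and that of all tested genes 0.17.

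The order of levels was nearly the same in the KO libraries and in WT replicate 1. Selplg and Cd47 came first and changed places between KO replicates 1 and 2, so their levels cannot be ordered. Itgb2, Cd44 and Itgb1 followed in that order in all 3 libraries. Itga4 ranked above Cxcr4 and Itga6 in both KO libraries and below both in WT replicate 1, with a Cxcr4 to Itga4 ratio of 0.653 and 0.523 in KO and 1.29 in WT replicate 1. Cxcr4 and Itga6 changed places between the KO libraries. Together the 9 genes held 0.192% and 0.167% of the summed gene FPKM in KO and 0.127% in WT replicate 1.

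**Figure D3:**
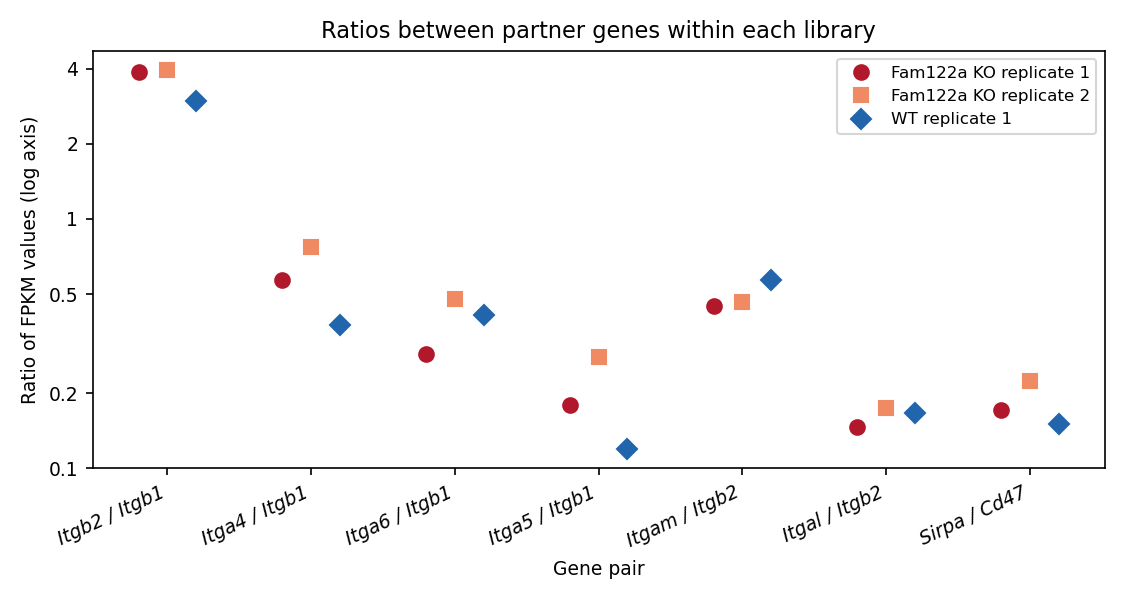
Ratios of FPKM values between partner genes within each library (log axis). Each point is 1 library, with KO left of WT replicate 1. The Itga4 to Itgb1 and Itga5 to Itgb1 ratios are higher, and the Itgam to Itgb2 ratio lower, in both KO libraries than in WT replicate 1.

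In WT replicate 2 the 9 genes had another profile. Itga6 at 86.4, Cd44 at 36.9 and Itga4 at 30.0 FPKM were the highest, and the other 6 genes lay between 0.19 and 9.18 FPKM. Itga6 was 3.57 times and Itga4 1.37 times its WT replicate 1 value, whereas Cd47 was at 0.0048 times, Selplg at 0.013 times and Cxcr4 at 0.021 times. The ratio of genomic span to exonic length is high for genes with long introns. Tested coding genes with a ratio over 16 had median levels of 48.0 FPKM in WT replicate 2 and 14.5 FPKM in WT replicate 1. In KO replicates 1 and 2 their medians were 4.22 and 4.53 FPKM. Genes with a ratio under 4 had medians of 1.63 FPKM in WT replicate 2 and 15.99 FPKM in WT replicate 1. Their medians in KO were 20.85 and 21.3 FPKM. For both classes WT replicate 1 thus lay between the KO libraries and WT replicate 2. Of the 9 genes, Cxcr4 and Selplg have a ratio under 4, and Cd47 has the highest, 18.2. With only genes of a ratio under 4 in the KO and WT replicate 1 fit, 0 of these 2 passed, where 5.44% of the 6321 tested genes passed (5.27% as lower in KO). Cd47 thus lay with the long genes by span and with the low genes by its WT replicate 2 value. Set against WT replicate 2 alone, 7 of the 9 genes passed as higher in KO, where 76.9% of all tested genes passed, 34.2% as higher and 42.7% as lower. With all 4 libraries 0 of the 9 and 0 of 20434 genes (0.0%) passed with limma, and 118 higher and 2364 lower genes had an unadjusted p under 0.05.

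**Figure D4:**
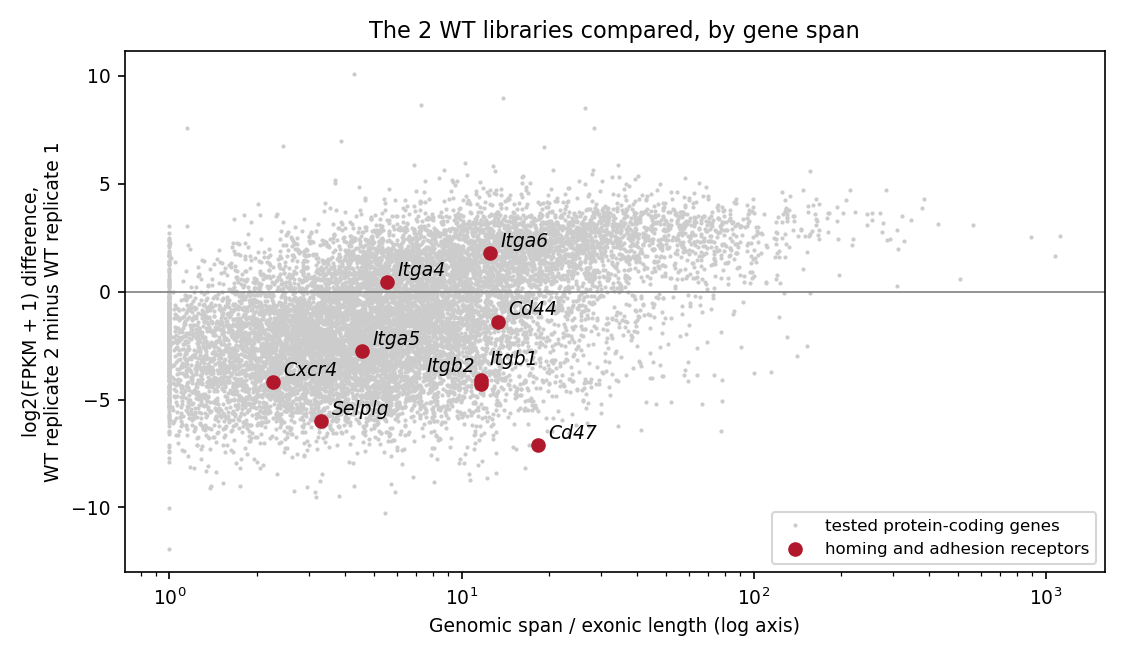
Log2(FPKM + 1) difference between WT replicate 2 and WT replicate 1 against the ratio of genomic span to exonic length (log axis). Grey points are tested protein-coding genes and red points the 9 receptors. Itga4 and Itga6 lie above 0, Cd44 lies below it, and the other 6 lie further below, with Cd47 lowest.

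The wider pathway was read in 8 lists of 134 genes outside the 9 receptors, of which 112 were tested. None rose (0%, against 0.454% of all tested genes) and 5 fell (4.46%, against 9.37%) in KO relative to WT replicate 1. The 5 that fell were Itgb6, Fermt1, Kitl, Jam2 and Cdh2, and 0 of them passed with all 4 libraries. Of the coding genes with a span ratio over 16, 22.3% passed as lower, against 4.05% of those from 4 to 16 and 1.19% of those under 4. Itgb6 (17.5) and Cdh2 (27.3) have ratios over 16, and Fermt1 (7.29), Jam2 (8.57) and Kitl (14.3) lie between 4 and 16. The values of the 5 genes in WT replicate 2 lay between 7.52 and 62.0 FPKM. Itgb6, Fermt1, Jam2 and Cdh2 were under 1 FPKM in both KO libraries, so they met the filter through WT replicate 1 alone. A filter of 1 FPKM in 2 libraries left them untested and kept Kitl. Counts of alternative settings given below leave out the settings that did not test the gene. Itgb6 and Jam2 no longer met the filter after equal-sum scaling or removal of the WT replicate 2 profile. Their calls were thus not tested there.

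Among the other integrin chains, 15 of 21 were tested, with a median log2 difference of 0.36 and 11 above 0. Itgb6, an epithelial beta chain, fell, at 0.19 and 0.11 FPKM in KO and 2.96 FPKM in WT replicate 1 (-1.79, SE 0.077, limma adjusted p = 0.0286). WT replicate 2 held 34.1 FPKM of it, and the call held in 3 of 6 alternative settings. Itgb5, a partner of the alphav chain, was at 34.5 and 22.3 FPKM in KO, 6.99 FPKM in WT replicate 1 and 22.6 FPKM in WT replicate 2 (1.85, SE 0.39, adjusted p = 0.137). Itgb4, a partner of ITGA6 in epithelia, was at 1.3 and 3.25 FPKM in KO and 0.13 FPKM in WT replicate 1, and did not pass.

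Of the genes that activate integrins or link them to actin, 23 of 25 were tested, with a median of 0.15 and 13 above 0. Fermt1, the kindlin of epithelia, fell, at 0 and 0.04 FPKM in KO and 21.3 and 21.5 FPKM in WT replicates 1 and 2 (-4.45, SE 0.10, limma adjusted p = 0.0144, passing in 9 of 9 alternative settings). Fermt3, the kindlin of blood cells, picked with values known, was at 225 and 206 FPKM in KO and 131 FPKM in WT replicate 1, and did not pass (0.71, SE 0.10, adjusted p = 0.1003). Ptk2, the focal adhesion kinase gene, was at 9.39 and 8.29 FPKM in KO and 28.7 and 188 FPKM in WT replicates 1 and 2. Its difference of -1.60 became 1.26 with the profile of WT replicate 2 taken off, and neither value passed. Rasgrp2, an exchange factor that loads Rap1 with GTP, was at 220 and 290 FPKM in KO and 113 FPKM in WT replicate 1 (1.15, SE 0.26, adjusted p = 0.143).

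In the chemokine list around CXCR4, 17 of 18 genes were tested, 8 above and 9 below 0, with a median of -0.031 and none past the test. Cxcl12 itself, picked with values known, was at 4.32 and 5.36 FPKM in KO and at 8.69 and 5.08 FPKM in WT replicates 1 and 2. Grk2 and Grk6 encode kinases that phosphorylate and desensitise CXCR4 and related receptors. Grk6 was at 127 and 137 FPKM in KO, against 59.6 FPKM in WT replicate 1 (1.14, SE 0.097, limma adjusted p = 0.0613). Grk2 was at 144 and 167 FPKM in KO, against 69.6 FPKM in WT replicate 1 (1.14, SE 0.15, adjusted p = 0.0893). Both KO libraries were higher for both kinase genes, without passing. Grk6 passed in 2 of 11 alternative settings and Grk2 in 0 of 10. Cx3cr1, a chemokine receptor gene of monocytes and macrophages, was at 8.22 and 5.93 FPKM in KO and 30.1 FPKM in WT replicate 1 (-1.96, SE 0.30, adjusted p = 0.103).

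The selectin list had 16 of 17 genes tested, a median of 0.19, 12 above 0 and none past the test. Its largest difference was that of Cd34, a gene of the sort gate (-1.27, SE 0.31, limma adjusted p = 0.154). Tpst1, which sulphates tyrosines of proteins such as SELPLG, was at 12.7 and 14.6 FPKM in KO and 7.5 FPKM in WT replicate 1 (0.78, SE 0.19, adjusted p = 0.157). Podxl, a relative of Cd34, was at 1.17 and 1.47 FPKM in KO and 0.50 FPKM in WT replicate 1. In the list of hyaluronan genes and CD44 partners, all 10 of the 14 genes that were tested lay above WT replicate 1 in both KO libraries, where 42.5% of all tested genes did, with a median of 0.42 and none past the test. The list was chosen with earlier results of these data known, so this count cannot be read as a test. Ezr, which ties CD44 to actin, was at 87.6 and 111 FPKM in KO and 43.7 FPKM in WT replicate 1 (1.16, SE 0.22, adjusted p = 0.125). Sdc4, a proteoglycan gene, was at 8.95 and 27.6 FPKM in KO and 2.18 FPKM in WT replicate 1. Mmp14, a membrane protease gene, was at 4.93 and 5.72 FPKM in KO and 2.19 FPKM in WT replicate 1. Neither passed.

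CD47 partners had 6 of 7 genes tested, with a median of 0.35, and none passed. Lrp1, the receptor for calreticulin on engulfing cells, was at 10.4 and 9.23 FPKM in KO and 2.88 FPKM in WT replicate 1 (1.48, SE 0.21, limma adjusted p = 0.0973). Qpctl, which modifies CD47 so that SIRPA binds it, was at 8.42 and 7.57 FPKM in KO and 3.67 FPKM in WT replicate 1. Sirpb1a was at 9.76 and 6.89 FPKM in KO and 13.4 FPKM in WT replicate 1.

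Niche ligands and matrix had 8 of 14 genes tested, 3 above and 5 below 0, with a median of -0.35. Kitl, the stem cell factor gene of the stroma, fell, at 1.58 and 1.3 FPKM in KO and 50.9 and 32.0 FPKM in WT replicates 1 and 2 (-4.41, SE 0.21, limma adjusted p = 0.0318, passing in 9 of 10 alternative settings). Fn1, the fibronectin gene, was at 148 and 132 FPKM in KO and 58.0 FPKM in WT replicate 1 (1.25, SE 0.12, adjusted p = 0.0688). Lama4, a laminin chain gene, was at 1.76 and 0.14 FPKM in KO and 4.96 FPKM in WT replicate 1. Among junction and other homing receptors, 17 of 18 were tested, 8 above and 9 below 0, with a median of -0.088. Cdh2, the N-cadherin gene, fell, at 0.73 and 0.46 FPKM in KO and 43.6 and 62.0 FPKM in WT replicates 1 and 2 (-4.81, SE 0.22, adjusted p = 0.0303, passing in 8 of 9 alternative settings). Jam2, a junctional adhesion molecule gene named because it passed, fell, at 0.48 and 0.42 FPKM in KO and 2.27 and 7.52 FPKM in WT replicates 1 and 2 (-1.17, SE 0.066, adjusted p = 0.0380, passing in 3 of 6 alternative settings). With quantile normalization the Jam2 difference was 0.016 (adjusted p = 0.943). Tek, the angiopoietin receptor gene, was at 4.43 and 2.74 FPKM in KO and 41.5 and 79.7 FPKM in WT replicates 1 and 2 (-3.24, SE 0.37, adjusted p = 0.0812). Neo1, a guidance receptor gene, was at 0.94 and 2.04 FPKM in KO and 6.69 and 33.1 FPKM in WT replicates 1 and 2, and did not pass. Markers of stromal and endothelial cells, 7 in all, summed to 12.4 and 11.8 FPKM in KO and to 33.1 and 120 FPKM in WT replicates 1 and 2. Emcn was the largest part of the WT sums, at 3.66 and 3.3 FPKM in KO and at 16.2 and 71.3 FPKM in WT replicates 1 and 2. Col1a2, singled out with values known, was higher in KO, at 2.94 and 2.57 FPKM, than in WT replicate 1, at 0.76 FPKM. None was at 0, and 4 and 3 of the 7 reached 1 FPKM in KO, against 4 and 7 in WT replicates 1 and 2. Their part in the values of Kitl, Cdh2 and Tek was not tested.

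**Figure D5:**
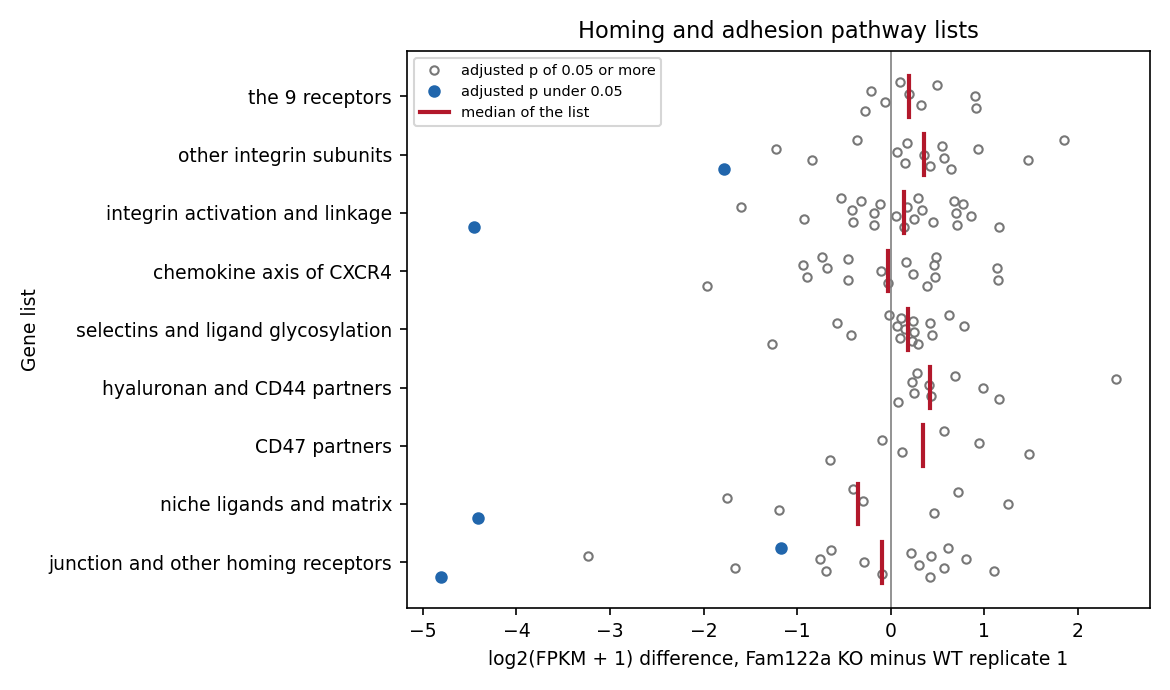
Log2(FPKM + 1) differences, KO minus WT replicate 1, of the tested genes in the 9 receptors and in each of the 8 pathway lists. Circles are genes (filled where the adjusted p was under 0.05), spread vertically for legibility, and red bars are list medians. The 5 filled circles all lie below 0, and the hyaluronan and CD44 list lies entirely above 0.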

How the data were processed

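Each library was made from RNA of sorted cells with the SMART-Seq v4 low-input kit, per the labels' protocols. Per the submitters' processing notes, the tools were HISAT2 2.1.0, STAR 2.7.1a and bcl2fastq and the builds mm10 and GRCm38.p5, without their roles. The deposited files list 87703 features, 51912 of them Ensembl genes, with 1 value each, read as FPKM from its steps and length dependence. FPKM is no count, so limma 3.58.1 (R 4.3.3, empirical Bayes with trend, two-sided) was fitted to log2(FPKM + 1) of the 15867 Ensembl genes with a mean of at least 1 FPKM, and p-values were Benjamini-Hochberg adjusted over them. On this scale the change of low genes is understated. Each library pools 3 animals. In the fit with WT replicate 1 alone, the spread behind the p-values comes from the KO pair, moderated over genes. These p-values hold no spread between WT libraries. Fragment numbers were estimated from value, depth and exonic length, and their 95% Poisson intervals cover counting error only. Symbols and coordinates came from GENCODE M21. Deviations of the replicates from their group means correlated at 0.055 between KO and WT. Because WT replicate 2 stood apart, this value cannot show whether the replicate numbers pair the libraries. Members and lists were chosen with earlier results of these data known. From each list the text names up to 3 genes with the largest difference where WT replicate 1 lay outside the KO pair, and says where a gene was picked otherwise. Alternatives changed the pseudocount, filter, scaling, trend, threshold, libraries and replicate block, or took a scaled WT replicate 2 profile off WT replicate 1. Of these, 11 fits used the KO libraries and WT replicate 1. A gene's count of alternative settings covers only those of the 11 in which it was tested.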

Additional observations from a re-analysis of the deposited data

Results flagged for a closer look

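Signal in data outside the comparisons appeared at loci without a gene name. Among 35791 such loci, 2 reached 5 FPKM in each KO library while listed at 0 in each WT library, and 787 had the reverse pattern. All such loci together held 1.74% and 1.81% of the summed FPKM in KO replicates 1 and 2. In WT replicates 1 and 2 they held 9.14% and 53.9%.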

How the results depend on the processing

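The comparison rests on WT replicate 1 alone. With WT replicate 2 in its place, the median log2 difference of the 9 receptors was 4.01, 7 of them passed, and 7103 genes were higher and 8850 lower. With all 4 libraries the median was 2.24 and 0 genes were called, also with the replicate block (median 2.24, 0 genes). Whether the replicate numbers pair the libraries could not be decided. Leaving out a KO replicate gave medians of 0.17 to 0.32 against WT replicate 1, and with all 4 libraries 2.11 and 0 genes. Cxcr4 turned positive with all 4 libraries and with the block (1.90), with WT replicate 2 alone (4.01), with all 4 less a KO replicate (1.83 to 1.97) and with equal sums (0.020), and Cd44 turned positive likewise (0.42, 1.12 and 0.31 to 0.54) but not with equal sums. Itga6 turned positive with equal sums (0.17) and after profile subtraction (0.72), and Itgb1 negative with median ratio scaling (-0.060), quantile normalization (-0.033) and subtraction (-0.047). Without KO replicate 1 both signs turned as well, with Itga6 at 0.17 and Itgb1 at -0.033. Of the other named genes, Cd34 turned positive with all 4 libraries and with the block (0.35), with WT replicate 2 alone (1.96) and with all 4 less a KO replicate (0.10 to 0.59), Tpst1 turned negative likewise (-0.18, -1.15 and -0.27 to -0.094), Ptk2 turned positive after subtraction (1.26) and Jam2 with quantile normalization (0.016). The members' median was 0.43 with equal sums, 0.041 with median ratios, 0.40 with quantile normalization and 0.059 over the 2 short-span members. All tested genes had medians of 0.22, -0.15, 0.21 and 0.17 in these settings, so the 2 short-span members lay below theirs. Genes higher, 72 as reported, numbered 29 with a pseudocount of 0.1, 761 without a filter, 18 at a mean of 5 FPKM, 25 with 1 FPKM in 2 libraries, 865 with quantile normalization, 11 over short-span genes, 28 without trend and 809 at a threshold of 0.1. Genes lower, 1487 as reported, numbered 672, 9265, 515 and 196 under the first 4 of these, 333 over short-span genes, 520 after subtraction and 2392 at 0.1. The cause of these changes was not tested. The values of Cxcr4 and Itga5 in WT replicate 2 rest on an estimated 2 fragments each.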
